A study of Mus musculus with 8 samples.

Results

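Aquaporins are membrane channels that let water, and in some members glycerol, cross the lipid bilayer, and vasopressin receptors set how much of the collecting duct channel reaches the cell surface. In the kidney AQP1 carries the bulk of water reabsorption in the proximal tubule and thin descending limb, whereas AQP2, AQP3 and AQP4 form the apical and basolateral route through the principal cells of the collecting duct. Vasopressin binds the V2 receptor on those cells, raises cyclic AMP and drives AQP2 to the apical membrane, and over longer times it raises transcription of the Aqp2 gene. The 10 genes described here are 8 aquaporins (Aqp1, Aqp2, Aqp3, Aqp4, Aqp6, Aqp7, Aqp8 and Aqp11) and the receptors Avpr2 and Avpr1a, chosen by symbol from the 23386 genes of the deposited table, and each symbol matched 1 gene.

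Poly-A RNA of the whole left kidney was sequenced from 4 Ctrp1-/- mice (KO) and 4 wild-type littermates (WT), all 49 weeks old, with 1 library per mouse. Ctrp1 (gene C1qtnf1) encodes CTRP1, a secreted relative of adiponectin. The KO allele, C1qtnf1tm1Lex, is a germline deletion of the coding part of exon 4 and some of the 3′ UTR. It was made in 129S5/Sv embryonic stem cells and crossed onto C57BL/6J over several generations, the strain both groups are labelled with. Both genotypes came from crosses of heterozygotes and had free access to food and water, and the sex of each animal is not given in the labels. In bulk kidney, fewer cells of a type and less RNA per cell cannot be told apart.

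The libraries held 15027400 to 19256378 counted reads. Levels are given as scaled FPKM, the deposited FPKM (fragments per kilobase of gene, normalised to library depth) divided by 1 factor per library, which allows levels of genes of different length to be compared. C1qtnf1, the targeted gene, measured 0.325 ± 0.174 scaled FPKM in KO and 3.63 ± 0.877 in WT (SD, n = 4 each). All 12 lists of cell type markers held detected genes, and the tubule markers named below were abundant. Several libraries stood apart. KO replicate 3 had the highest inner medulla and papilla score (1.06 log2 units above the mean of the 8 libraries, against -0.63 to 0.30 in the other 7). WT replicate 3 had the lowest score of the proximal straight tubule (-0.80, against -0.12 to 0.46), and KO replicate 4 the highest score of erythroid markers (1.33, against -0.68 to 0.19). Values of the tested members without single libraries are given beside the result or as ranges in the closing section.

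Of the aquaporin and vasopressin receptor genes, 9 passed the filter on low values (a mean of at least 0.5 scaled FPKM) and were tested with limma, and Avpr2 did not pass it. 0 of the 9 differed between genotypes at an adjusted p under 0.05, where 0.0499% of all 14022 tested genes did (0.0285% higher and 0.0214% lower in KO). At an unadjusted p under 0.05 the count was also 0 of 9, against 15.4% of all tested genes (7.18% higher and 8.26% lower in KO). In all 10 genes, Avpr2 below the filter included, the KO and WT values overlapped. The groups did not overlap for 8.62% of the tested genes (4.34% higher and 4.28% lower in KO), a share too small for 0 of 10 to stand out. Of the 9 log2 fold changes of KO over WT, 4 were above and 5 below 0, and their median was -0.04, against -0.00 over all tested genes. The members differed in their spread among animals. The coefficient of variation in KO was 2.19% for Aqp1, 75.1% for Aqp2 and 112% for Aqp8, and in WT it was 10.6% for Aqp1, 15.4% for Aqp2 and 47.7% for Aqp8.

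**Figure D1:**
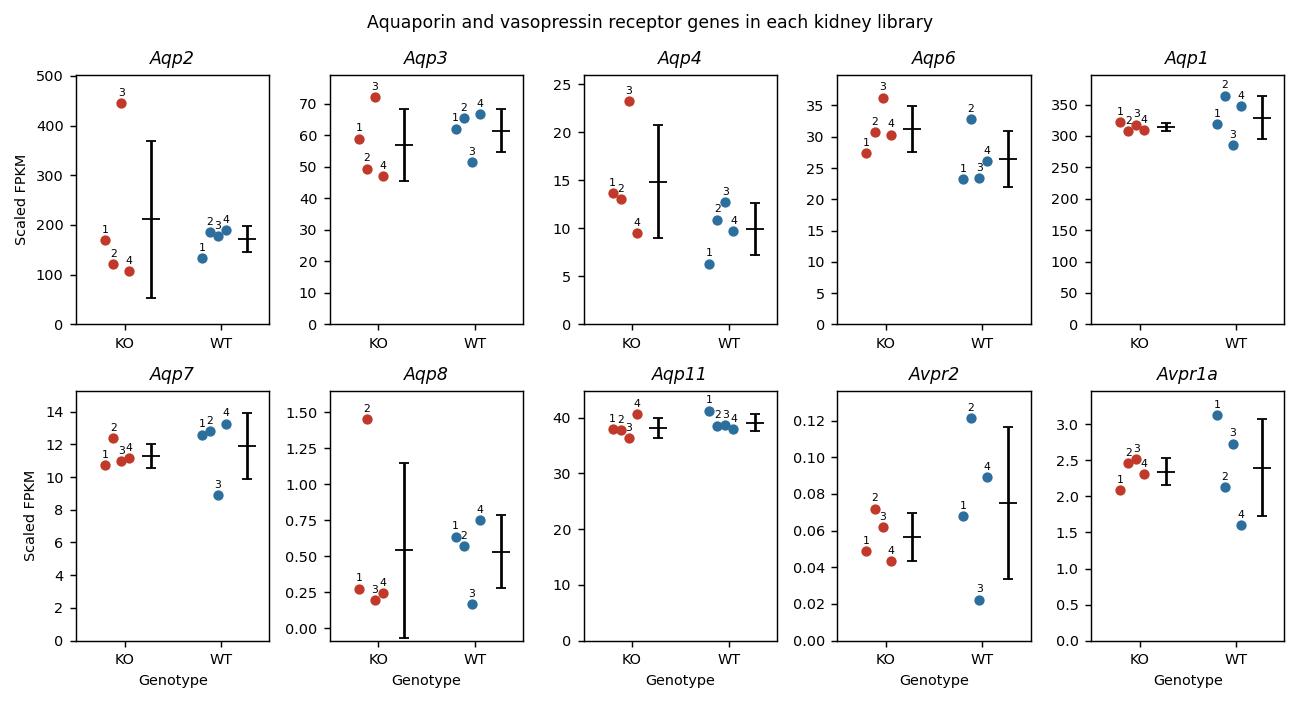
Scaled FPKM (vertical axes, linear) of the 10 genes in each kidney library of Ctrp1-/- (KO, red) and wild-type (WT, blue) mice. The number beside a point is the replicate, and the bar is the mean ± SD (n = 4). KO replicate 3 was the highest library for Aqp2 (446), Aqp3 (72.0), Aqp4 (23.2) and Aqp6 (36.3).

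Vasopressin acts on the Aqp2 gene through cyclic AMP, and GATA factors act in the collecting duct, so the members' promoters were searched for the DNA elements of both. RefSeq promoters of build GRCm38.p6, from 250 bases before to 50 after the gene start, were searched on both strands for the half-site of the cyclic AMP response element (TGACG, or CGTCA on the other strand), the full element TGACGTCA and a GATA site (AGATAA, or TTATCT on the other strand). The 9 genes searched, in 10 promoter windows, were all but Aqp4. The Aqp2 promoter held a half-site 211 bases and a GATA site 202 bases before the start, and no full element. Of the other promoters, that of Avpr1a held a half-site 165 bases and one of the pair for Aqp7 a GATA site 132 bases before the start. The matches, with the motif letters in capitals, are shown 5′ to 3′ on the strand of the gene because the Aqp2 promoter was the only one of the 10 windows with both elements.
Aqp2 (chr15:99578838-99578867, plus strand): acagagaCGTCAatccTTATCTggagtcca
Avpr1a (chr10:122448322-122448351, plus strand): tactacacctgtTGACGcgctgcatgactt
Aqp7 (chr4:41048251-41048280, minus strand): ctctggtcttagAGATAAgccagacacttg
Of all 32851 promoter windows, 20.8% held the half-site, 11.2% the GATA site, 1.55% both and 1.79% the full element. A match is a description of the letters and not evidence of binding.

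Aqp2 (ENSMUSG00000023013; chromosome 15, 99579056 to 99584545, plus strand, mm10), the vasopressin-regulated apical channel of principal cells, was the most variable of the abundant members. It measured 169.7, 122, 446 and 108 scaled FPKM in KO replicates 1 to 4 and 132, 186, 177 and 189 in WT replicates 1 to 4. KO replicate 3 stood above every other library, KO replicate 1 lay within the WT range, and KO replicates 2 and 4 lay below all 4 WT libraries. The means were 211 ± 159 in KO and 171 ± 26.4 in WT (SD, n = 4 each), and the log2 fold change was 0.07 (SE 0.38, 95% interval -0.78 to 0.91) with a limma adjusted p of 0.955. Without KO replicate 3 the KO mean was 133 ± 32.5 (SD, n = 3), and the log2 fold change turned to -0.38 (SE 0.17, 95% interval -0.76 to 0.00) with a limma adjusted p of 0.363 and an exact two-sided permutation p of 0.171 over the 35 arrangements. It was also below 0 without WT replicate 1, with a log2 fold change of -0.05 (limma adjusted p = 0.972). The genotype difference in Aqp2 therefore changed sign when either of these libraries was left out, and it did not pass the test in any of these fits.

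Aqp3 (chromosome 4, 41092722 to 41098183), the basolateral channel of principal cells that also carries glycerol, measured 58.9, 49.4, 72.0 and 46.9 scaled FPKM in KO and 62.1, 65.4, 51.5 and 66.6 in WT. The KO libraries spanned more than the WT libraries, with KO replicate 3 above and KO replicates 2 and 4 below all 4 WT libraries. Its log2 fold change was -0.12 (SE 0.13, 95% interval -0.42 to 0.17; limma adjusted p = 0.677), and -0.24 without KO replicate 3 (SE 0.11; limma unadjusted p = 0.0479, adjusted p = 0.355). It was -0.06 without KO replicate 2 (limma adjusted p = 0.858), -0.04 without KO replicate 4 (limma adjusted p = 0.913) and -0.21 without WT replicate 3 (limma adjusted p = 0.394). The level of Aqp2 over that of Aqp3 was 6.19 in KO replicate 3, against 2.30 to 2.88 in the other KO libraries and 2.13 to 3.44 in WT, so Aqp2 stood further out in that library than Aqp3 did.

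Aqp4 (chromosome 18, 15389394 to 15403684), the basolateral water channel whose share grows toward the inner medullary collecting duct, had the largest log2 fold change of the 9 tested genes. It measured 13.7, 13.0, 23.2 and 9.49 scaled FPKM in KO and 6.33, 10.9, 12.7 and 9.68 in WT. 3 KO libraries lay above all WT libraries, whereas KO replicate 4 lay below 3 of them. The means were 14.9 ± 5.87 in KO and 9.89 ± 2.68 in WT (SD, n = 4 each), a log2 fold change of 0.53 (SE 0.26, 95% interval -0.06 to 1.12) with a limma adjusted p of 0.359 and an exact two-sided permutation p of 0.171. The smallest p that 4 against 4 libraries allow is 0.0286. The log2 fold change of Aqp4 was 0.30 without KO replicate 3 (adjusted p = 0.552) and 0.34 without WT replicate 1 (adjusted p = 0.611), and neither fit passed.

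**Figure D2:**
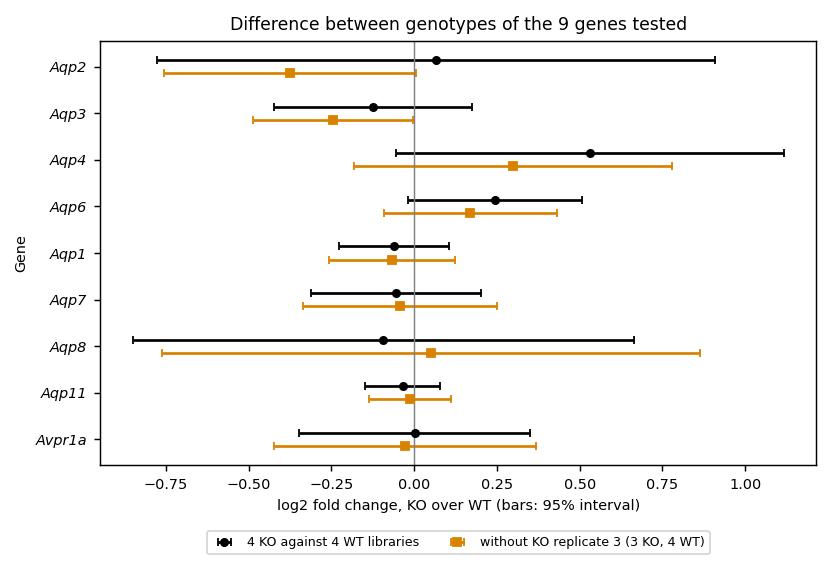
KO over WT log2 fold change on the horizontal axis, with the 95% interval of each estimate, for the 9 genes tested, in all 8 libraries (black circles) and without KO replicate 3 (orange squares). Aqp2 went to the other side of 0, at 0.07 and -0.38, and the black intervals of all 9 genes include 0.

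The libraries in which Aqp2, Aqp3 and Aqp4 were high were examined against markers of the collecting duct and the inner medulla. KO replicate 3 exceeded the mean of the other 3 KO libraries 3.35-fold for Aqp2, 1.92-fold for Aqp4, 1.39-fold for Aqp3 and 1.23-fold for Aqp6, and 1.02-fold for Aqp1, 0.962-fold for Aqp7 and 0.938-fold for Aqp11. Among the 8161 genes with a mean of at least 5 scaled FPKM, 6 including Aqp2 itself stood as far above the other KO libraries as Aqp2 did on the log2 scale. The other 5, named after their values were seen, were Psca, Akr1b3, Ighg2c, Cryab and Nupr1.

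The inner medulla and papilla list was higher in KO replicate 3 for 8 of 9 genes, with a median log2 difference of 1.26 from the other KO libraries, and the thin descending limb list for 9 of 9 with a median of 1.10. Slc14a2, the urea transporter of the inner medullary collecting duct and thin limb, stands in both lists and measured 11.8, 9.52, 26.4 and 4.42 scaled FPKM in KO and 2.95, 14.1, 6.14 and 7.95 in WT. Akr1b3, aldose reductase, which makes the medullary osmolyte sorbitol, measured 27.8, 19.0, 88.3 and 16.5 in KO and 15.6, 12.9, 35.5 and 16.2 in WT. KO replicate 3 was thus the highest library for both genes. Summed over the list, inner medulla markers reached 146 to 272 scaled FPKM in KO and 142 to 188 in WT, and no gene of the list was at 0 in all libraries. Between genotypes, 8 of 9 genes lay above WT in each of the lists, with a median log2 fold change of 0.45 for the inner medulla list and 0.39 for the thin limb list, and of 0.14 and 0.22 without KO replicate 3. The inner medulla median was 0.84 without KO replicate 4 and 0.26 without WT replicate 4. In the inner medulla list Slc6a6 (-0.18, limma adjusted p = 0.317) and Slc6a12 (0.70, limma adjusted p = 0.384), transporters of the osmolytes taurine and betaine, had the smallest p, and in the thin limb list Epha7 (0.27, limma adjusted p = 0.344) and Bst1 (0.67, limma adjusted p = 0.359). Their part in the Aqp2 and Aqp4 values was not tested.

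Of the principal cell markers, 7 of 10 lay above the other KO libraries in KO replicate 3, with a median log2 difference of 0.13, where the median over all tested genes was -0.01. KO replicate 3 was the highest of the 8 libraries for 4 of the 10, Fxyd4, Krt18, Elf5 and Kcnj1, of which Fxyd4 also stands in the inner medulla list and Kcnj1 in that of the thick ascending limb. Fxyd4, a regulator of the sodium pump, measured 25.6, 15.2, 37.1 and 16.3 scaled FPKM in KO and 13.3, 17.3, 22.7 and 16.0 in WT. The level of Aqp2 over that of Fxyd4 was 12.0 in KO replicate 3, against 6.61 to 7.99 in the other KO libraries and 7.81 to 11.9 in WT, so relative to Fxyd4 the Aqp2 level of KO replicate 3 lay close to the highest WT library. Hsd11b2, which shields the mineralocorticoid receptor from glucocorticoids, measured 70.6, 59.9, 72.9 and 72.1 scaled FPKM in KO and 82.6, 80.8, 71.2 and 77.0 in WT, and KO replicate 3 lay close to KO replicates 1 and 4. The level of Aqp2 over that of Hsd11b2 was 6.12 in KO replicate 3, against 1.49 to 2.40 in the other KO libraries and 1.60 to 2.49 in WT. Of the 10 principal cell markers, 5 lay above and 5 below WT, and Hsd11b2 (-0.18, limma adjusted p = 0.295) and Scnn1b (-0.15, limma adjusted p = 0.394), a sodium channel subunit, had the smallest p. Aqp5, a water channel gene 6303 bases downstream of Aqp2, was below the filter but also highest in KO replicate 3, with 30 of the 43 KO reads and 24 reads in the 4 WT libraries.

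**Figure D3:**
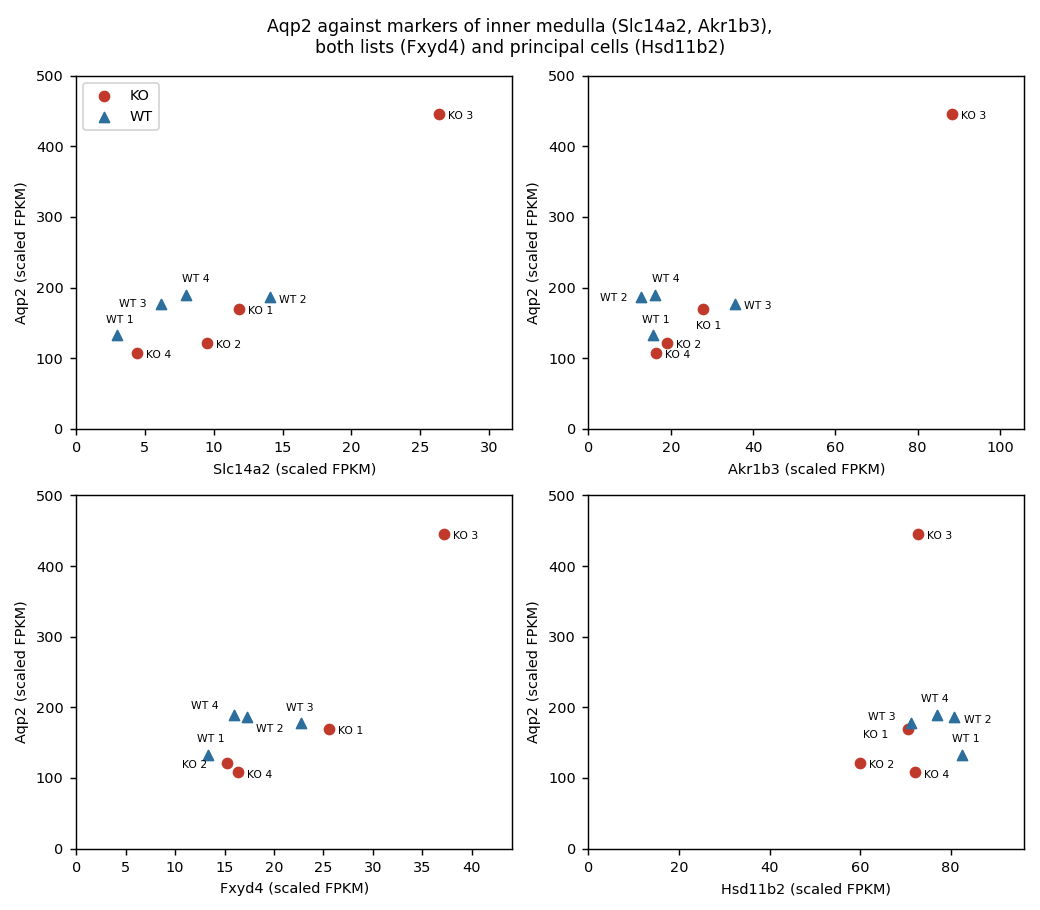
Aqp2 (vertical axes) against 2 markers of the inner medulla, Slc14a2 and Akr1b3, a marker in both that list and the principal cell list, Fxyd4, and a marker of principal cells, Hsd11b2 (horizontal axes), all in scaled FPKM on linear axes, for each KO (red circles) and WT (blue triangles) library. KO replicate 3, with Aqp2 at 446, was also the highest for Slc14a2 (26.4), Akr1b3 (88.3) and Fxyd4 (37.1), but not for Hsd11b2 (72.9), and 4 of the 10 principal cell markers were highest in that library.

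**Figure D4:**
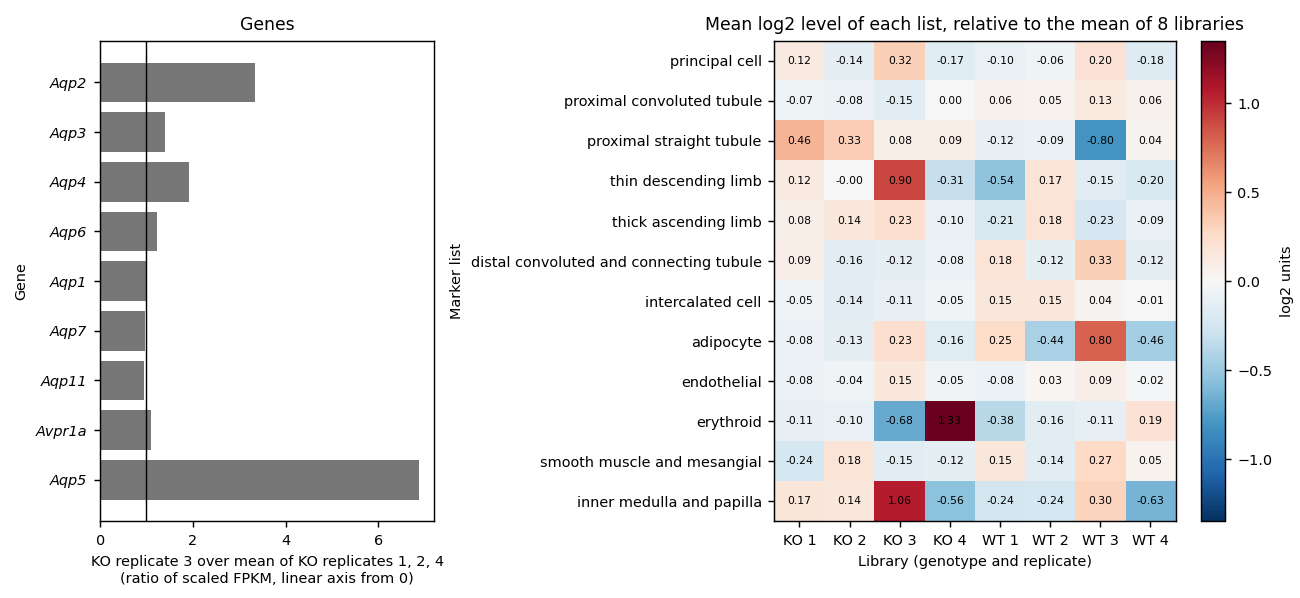
Left, scaled FPKM of KO replicate 3 over the mean of the other 3 KO libraries (linear axis from 0; line at 1) for Aqp5 and for the members but Aqp8 and Avpr2, which had few reads. Right, mean log2 level of each marker list in each library relative to the mean of the 8 libraries (colour and number, log2 units). KO replicate 3 stood at 1.06 for inner medulla and papilla and 0.90 for thin descending limb, and at 0.32 for principal cells.

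Aqp6 (chromosome 15, 99601400 to 99605477), an anion-permeable channel of intracellular vesicles in acid-secreting intercalated cells, measured 27.4, 30.7, 36.3 and 30.4 scaled FPKM in KO and 23.3, 32.8, 23.4 and 26.2 in WT. WT replicate 2 was the only WT library within the KO range. The means were 31.2 ± 3.69 in KO and 26.4 ± 4.49 in WT (SD, n = 4 each), a log2 fold change of 0.24 (SE 0.12, 95% interval -0.02 to 0.51) with a limma adjusted p of 0.352, the smallest adjusted p of the 9 genes. The markers of intercalated cells lay on the other side, with 9 of 12 below WT and a median of -0.17. An unadjusted p under 0.05 was found for 6 of the 12, all lower in KO, against 8.26% of all tested genes in that direction. Of these, the bicarbonate transporter gene Slc4a9 (-0.42, limma adjusted p = 0.108) and Insrr (-0.37, limma adjusted p = 0.108) had the smallest p. The level of Aqp6 over that of the proton pump subunit gene Atp6v1g3 averaged 1.71 ± 0.27 in KO and 1.27 ± 0.20 in WT (SD, n = 4 each), and the groups overlapped between 1.41 and 1.48.

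Aqp1 (chromosome 6, 55336432 to 55348555), the constitutive channel of the proximal tubule and thin descending limb, was the most abundant member. It measured 322, 308, 318 and 309 scaled FPKM in KO and 319, 364, 285 and 348 in WT, so that all 4 KO libraries lay within the WT range. Its log2 fold change was -0.06 (SE 0.07, 95% interval -0.23 to 0.10; limma adjusted p = 0.715), which leaves room for a level in KO between 0.855 and 1.07 times that in WT. Red blood cells also carry AQP1. KO replicate 4, whose erythroid markers summed to 3369 scaled FPKM against 573 to 1012 in the other KO libraries, had 309 of Aqp1, between KO replicates 2 and 3. In KO replicate 3, where the thin limb list stood high, Aqp1 was likewise within the range of the other KO libraries. The part of red blood cells and of the thin limb in the Aqp1 values was not tested.

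Aqp7 (chromosome 4, 41033074 to 41048139), a glycerol and water channel of the brush border of the straight proximal tubule, measured 10.7, 12.4, 11.0 and 11.2 scaled FPKM in KO and 12.6, 12.8, 8.91 and 13.3 in WT. WT replicate 3 was the lowest library and the other 3 WT libraries lay above all 4 KO libraries. Its log2 fold change was -0.06 (SE 0.11; limma adjusted p = 0.847), and -0.18 without WT replicate 3 (SE 0.06; limma unadjusted p = 0.0157, adjusted p = 0.143). Markers of the straight proximal tubule went the other way, with 6 of 7 above WT and a median of 0.43. At an unadjusted p under 0.05 there were 5, all higher in KO, against 7.18% of all tested genes in that direction. Slc5a8 (0.43, limma adjusted p = 0.155) and Slc22a30 (0.41, limma adjusted p = 0.187) had the smallest p in that list. WT replicate 3, lowest for Aqp7, was also lowest for that list, whose part in the Aqp7 values was not tested. Fat cells carry AQP7 too. The 8 adipocyte markers summed to 54.2 to 78.5 scaled FPKM in KO and 51.9 to 66.1 in WT, of which Fabp4, also a gene of endothelial cells, made up nearly all. The fat cell hormone gene Adipoq lay at 0 to 0.268 in KO and 0 to 1.21 in WT, and was highest in WT replicate 3, the library lowest for Aqp7.

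Aqp11 (chromosome 7, 97726379 to 97738247), a channel of the endoplasmic reticulum of proximal tubule cells whose loss gives cystic kidneys in mice, had the smallest SD relative to its mean over the 8 libraries. It measured 37.9, 37.8, 36.4 and 40.7 scaled FPKM in KO and 41.3, 38.6, 38.7 and 37.9 in WT, nearly the same range. Its log2 fold change was -0.04 (SE 0.05, 95% interval -0.15 to 0.08; limma adjusted p = 0.767). Aqp8 (chromosome 7, 123462294 to 123468003), a channel of inner membranes, was close to the filter, with 6, 43, 5 and 6 reads in KO and 15, 15, 4 and 18 in WT. KO replicate 2 alone held 43 of the 60 KO reads. The log2 fold change of Aqp8 was -0.09 (SE 0.34; limma adjusted p = 0.916), and the reads per counted read stood at a ratio of KO over WT of 1.12 (exact 95% interval 0.757 to 1.65), an interval that covers counting error only.

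Avpr2 (chromosome X, 73892102 to 73895502), the V2 receptor gene through which vasopressin acts on the collecting duct, was almost uncounted. It had 2, 4, 3 and 2 reads in KO and 3, 6, 1 and 4 in WT, or 0.0566 ± 0.0129 scaled FPKM in KO and 0.0751 ± 0.0415 in WT (SD, n = 4 each). The ratio of KO over WT was 0.760 with an exact 95% interval of 0.312 to 1.80 that covers counting error only, and the exact two-sided permutation p was 0.514, so a difference was not detectable at this depth. In GENCODE vM21, 81.3% of the exon bases of Avpr2 (2347 of 2886) are also exon bases of Arhgap4, a gene on the opposite strand, and 0 exon bases of the other 9 members are shared with another gene. The labels and notes do not say whether the counting used strand. Reads that fall on the shared bases can be assigned to neither gene or to the wrong one, so the level of Avpr2 is uncertain, and the part of this overlap in the low count was not tested. Arhgap4 itself had 453 reads in KO and 400 in WT.

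Avpr1a (chromosome 10, 122448499 to 122453453), the V1a receptor gene, which signals through calcium in vessels, mesangium and collecting duct, measured 2.09, 2.46, 2.52 and 2.31 scaled FPKM in KO and 3.13, 2.13, 2.73 and 1.60 in WT. The KO libraries all lay inside the wider WT range. Its log2 fold change was 0.00 (SE 0.16, 95% interval -0.35 to 0.35; limma adjusted p = 0.998). Smooth muscle and mesangial markers were below WT in all 9 tested genes by sign, with a median of -0.14. At an unadjusted p under 0.05 there was 1, Des (-0.27, limma adjusted p = 0.219), against 8.26% of all tested genes in that direction. Pdgfrb (-0.32, limma adjusted p = 0.339) followed. The median of that list was -0.07 without WT replicate 3, -0.21 without KO replicate 2 and -0.23 without WT replicate 2.

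Ordered by level over the 8 libraries, the members ran from Aqp1 (322 ± 24.5 scaled FPKM) through Aqp2 (191 ± 107), Aqp3 (59.1 ± 9.06), Aqp11 (38.7 ± 1.60), Aqp6 (28.8 ± 4.59), Aqp4 (12.4 ± 4.99), Aqp7 (11.6 ± 1.43), Avpr1a (2.37 ± 0.46) and Aqp8 (0.536 ± 0.431) to Avpr2 (0.066 ± 0.030) (SD, n = 8). The ranges of neighbours in this order overlapped for Aqp1 and Aqp2, through KO replicate 3, and for Aqp4 and Aqp7, and for no other pair of neighbours. The place of Aqp11 depends on its gene model, since the deposited length was 1322 bases and GENCODE vM21 gives 9418 exon bases. Aqp2, Aqp5 and Aqp6 lie side by side on chromosome 15 with gaps of 6303 and 6570 bases, and Aqp7 and Aqp3 lie 44582 bases apart on chromosome 4, yet neighbours differed widely in level.

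Across the 8 libraries, 36 pairs of the 9 tested genes were correlated on the log2 scale, and 0 passed when p-values were adjusted over the pairs. The largest Pearson r in size was that of Aqp4 and Aqp11, at -0.88 (permutation p = 0.00444, adjusted p = 0.160), with a Spearman rho of -0.88 (permutation p = 0.00724, adjusted p = 0.130), and r was -0.57 without the 2 libraries farthest from the Aqp4 median, KO replicate 3 and WT replicate 1. Aqp2 and Aqp3 had a Pearson r of 0.76 (permutation p = 0.0118, adjusted p = 0.212) and a Spearman rho of 0.90 (permutation p = 0.0046, adjusted p = 0.130), and r was 0.52 without the 2 libraries farthest from the Aqp2 median, KO replicates 3 and 4. For Aqp2 and Aqp4, r was 0.75 (permutation p = 0.0552, adjusted p = 0.331) and rho 0.40 (permutation p = 0.327, adjusted p = 0.876), and r was 0.23 without the same libraries, so that relation rests on them. Genes most like Aqp2 over the 8 libraries, after the genotype means were removed, were Aif1l (r = 0.98), Ngef (r = 0.97) and Cldn15 (r = 0.97). KO replicate 3 was the highest library for each of them, as for Aqp2, with Aif1l at 59.9 and Cldn15 at 9.81 scaled FPKM. The other KO libraries lay at 47.6 to 49.9 for Aif1l and 5.65 to 6.05 for Cldn15. The genes most like Aqp1 were Fam3a, Fads6 and Gcgr (r = 0.98, 0.98 and 0.97), and those most like Aqp7 were Pbx2, Ampd2 and Tprn (r = 0.98, 0.98 and 0.97). All were picked as the best of the 8161 genes with a mean of at least 5 scaled FPKM, so a high r follows in part from the choice.

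The path from the V2 receptor to AQP2 was described from lists of other genes, of which 0 members were called in any list. Over all tested genes, 0.0499% were called and 15.4% had an unadjusted p under 0.05, and the counts below are to be read beside these shares. Of 27 tested genes between the receptor and cyclic AMP action, 16 were above and 11 below WT with a median log2 fold change of 0.01, and 3 had an unadjusted p under 0.05, 1 higher and 2 lower. They were the kinase anchor genes Akap11 (10.4 ± 0.218 scaled FPKM in KO and 8.61 ± 0.347 in WT, log2 fold change 0.25, limma adjusted p = 0.130) and Akap7 (-0.23, limma adjusted p = 0.284), which hold protein kinase A near its targets, and the arrestin gene Arrb2 (-0.21, limma adjusted p = 0.300). Adcy6, the adenylyl cyclase of the collecting duct response, was not among them and measured 23.4 to 25.7 scaled FPKM in KO and 23.5 to 26.7 in WT. Of 28 genes of AQP2 trafficking and turnover, 18 were above WT with a median of 0.03, and 4 had an unadjusted p under 0.05, 3 of them higher in KO. Of these, Rab5a (0.20, limma adjusted p = 0.191), an early endosome GTPase, and Ppp1r9a (0.27, limma adjusted p = 0.229) had the smallest p, followed by Stxbp2 (-0.11, limma adjusted p = 0.304), which binds syntaxins.

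Of 17 transcription factor genes linked to Aqp2, 12 were below WT with a median of -0.01. An unadjusted p under 0.05 was found for 3 of the 17, against 15.4% of all tested genes. Among them were Gata2 (-0.19, limma adjusted p = 0.244), a GATA factor of the collecting duct, and Sox9 (-0.39, limma adjusted p = 0.322). Of 13 tested genes that oppose V2 signalling, 0 had an unadjusted p under 0.05, and the smallest p belonged to the endothelin receptor gene Ednrb (0.22, limma adjusted p = 0.326), the prostaglandin E2 receptor gene Ptger3 (0.34, limma adjusted p = 0.339) and the adenosine receptor gene Adora1 (0.49, limma adjusted p = 0.430). Of 10 genes between the V1a receptor and calcium, 1 had an unadjusted p under 0.05, the calcium channel gene Itpr2 (-0.16, limma adjusted p = 0.260), followed by Gna11 (-0.11, limma adjusted p = 0.430) and Prkca (0.11, limma adjusted p = 0.457).

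AQP3 and AQP7 carry glycerol. Genes of glycerol metabolism, a list that includes lipases, had the largest share of small p-values among the pathway lists with more than 2 tested genes. Of 8 tested, 5 had an unadjusted p under 0.05, 1 higher and 4 lower in KO, and 0 passed the adjusted threshold. Over all tested genes, 15.4% had an unadjusted p under 0.05. Glycerol kinase (Gyk) measured 176 ± 13.1 scaled FPKM in KO and 151 ± 12.7 in WT (0.22, limma adjusted p = 0.224). The lipase genes Mgll and Pnpla2 lay below WT. Mgll measured 11.0 ± 0.828 in KO and 14.2 ± 1.47 in WT (-0.35, limma adjusted p = 0.155), and Pnpla2 45.4 ± 3.02 in KO and 53.0 ± 2.66 in WT (-0.22, limma adjusted p = 0.176) (SD, n = 4 each). Of the remaining aquaporin, vasopressin and oxytocin genes, 2 passed the filter, Lnpep, which encodes a peptidase that degrades vasopressin (0.36, limma adjusted p = 0.164), and Cul5 (0.11, limma adjusted p = 0.397). Lnpep measured 4.53, 5.05, 4.97 and 5.08 scaled FPKM in KO and 3.78, 3.54, 4.41 and 3.18 in WT. The groups did not overlap, as for 8.62% of all tested genes.

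Of the other cell types, 0 marker genes were called, where 0.0499% of all tested genes were. Proximal convoluted tubule markers lay below WT in 6 of 8 genes, led by the organic anion transporter gene Slc22a8 (-0.49, limma adjusted p = 0.137) and the glucose transporter gene Slc5a2 (-0.21, limma adjusted p = 0.155), while Aqp1, which the same segment carries, had a log2 fold change of -0.06. Thick ascending limb markers lay above WT in 7 of 8, with Cldn10 first by p (0.18, limma adjusted p = 0.266), and those of the distal convoluted and connecting tubule below WT in 6 of 8, with Klk1 (-0.19, limma adjusted p = 0.321) and Pvalb (-0.24, limma adjusted p = 0.337). Endothelial markers were split 4 to 4, with Ehd3 (-0.22, limma adjusted p = 0.276) and Tek (0.15, limma adjusted p = 0.483). Erythroid markers lay above WT in 5 of 6, with Slc4a1 (0.26, limma adjusted p = 0.443), which also stands in the intercalated cell list, and Hbb-bs (0.40, limma adjusted p = 0.704). Their median log2 fold change was 0.25 in all libraries, -0.23 without KO replicate 4 and 0.57 without KO replicate 3, so its direction rests on KO replicate 4. Of the adipocyte markers only Fabp4 (0.24, limma adjusted p = 0.337) and Cfd (-0.39, limma adjusted p = 0.748) passed the filter.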

How the data were processed

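The deposited table gave FPKM for each of the 8 libraries, per the file headers, with gene positions on mm10. The submitters' processing notes list STAR 2.5, HTSeq 0.6.1, CASAVA and DESeq2, giving none a role. Multiplying FPKM by gene length gave whole multiples of 1 step per library within a tolerance of 0.01 for 100% of values, so reads were recovered. FPKM was divided by median-ratio factors (0.978 to 1.03). Genes with a mean of at least 0.5 were fitted on log2(scaled FPKM + 0.5) in R 4.3.3 by limma 3.58.1, using a trended prior variance and genotype as the only term, two-sided, with Benjamini-Hochberg adjustment over all 14022 genes. The fit was also run on simulated reads that had the same spread setting for every gene and no outlying library. That run therefore does not show how the fit performs for genes as variable as Aqp2. Because 0.5 was added, fold changes of low genes are understated. Exact permutation tests over libraries used the 70 arrangements. Replicates are numbered in accession order, and the labels call them biological replicates.

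The genes, the 19 lists (209 genes, 11 in 2 or more lists, 3 not analysed here) and the tests were chosen with earlier results of these data known. Genes named were all 10 members and C1qtnf1, the 3 of smallest p in each pathway list, up to 2 from each marker list described, and the 3 genes with a mean of at least 5 whose log2 values correlated best with Aqp2, Aqp1 or Aqp7. Other genes were chosen after their values were seen or illustrate a list (Slc14a2, Akr1b3, Hsd11b2, Atp6v1g3, Adipoq, Adcy6, Aqp5). Sequences are RefSeq's. 1 gene that the rule would name is not reported here.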

Additional observations from a re-analysis of the deposited data

Results flagged for a closer look

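Each of the 10 genes was checked in each genotype for a library whose gap to the nearest other library exceeded Dixon's 95% critical share of the group's range, 20 groups in all, of which chance gives about 1 in 20. 2 stood out. In WT, Aqp7 was low in WT replicate 3, at 8.91 scaled FPKM against 12.6 to 13.3, with a gap of 0.847 of the range, and that library also had the lowest straight proximal tubule score (-0.80). In KO, Aqp8 was high in KO replicate 2, at 1.45 scaled FPKM against 0.194 to 0.275, with a gap of 0.936 of the range, which rests on 43 reads against 5 or 6. The high Aqp2 value of KO replicate 3 did not exceed this limit.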

How the results depend on the processing

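Under 19 alternatives (other pseudocounts, filters, scalings and limma settings, voom on recovered reads, removal of GC content and gene length trends, and leaving out each library), 0 aquaporin or receptor genes were called in any fit. Of 170 values of the 9 tested genes, 156 kept their direction and 14 reversed, and none became called. Leaving out a library gave log2 fold changes of -0.38 to 0.30 for Aqp2, -0.18 to 0.000287 for Aqp7, -0.45 to 0.052 for Aqp8 and -0.14 to 0.12 for Avpr1a, and -0.24 to -0.04 for Aqp3, 0.30 to 0.71 for Aqp4, 0.17 to 0.35 for Aqp6, -0.13 to -0.01 for Aqp1 and -0.07 to -0.01 for Aqp11. Several list medians near 0 also changed sign when a library was left out. That of the genes from the V2 receptor to cyclic AMP ran from -0.0017 to 0.031, and that of the transcription factors from -0.031 to 0.024. The trafficking and turnover median was 0.016 to 0.045 when a library was left out, but -0.0054 with GC and length trends removed. The straight proximal tubule median was 0.37 without WT replicate 3. With GC and length trends removed, the glycerol metabolism median went from -0.14 to -0.095. That of the other aquaporin, vasopressin and oxytocin genes went from 0.23 to 0.12. The proximal convoluted tubule median went from -0.13 to -0.029 with quantile normalization. Aqp1 was at 0.025 with quantile normalization and at 0.0023 with GC and length trends removed, and Avpr1a at -0.0025 with a pseudocount of 1 and at -0.023 with quantile normalization. With GC and length trends removed, 1 member had an unadjusted p under 0.05 (Aqp6, log2 fold change 0.32, limma adjusted p = 0.345), and leaving out a library gave 0 to 3. Those were Aqp3 without KO replicate 3, Aqp4 without KO replicate 4, Aqp6 without KO replicate 1 or WT replicate 2, and Aqp1, Aqp4 and Aqp7 without WT replicate 3. The number of all genes called was 22 with voom and 5 to 16 when a library was left out, 16 without WT replicate 3, and the cause was not tested. Aqp8 has no value with a filter at a mean of 1. Each library's deviation from the mean of all libraries followed transcript GC across genes. Spearman's rho was -0.39, -0.07, -0.12 and -0.36 in KO replicates 1 to 4 and 0.46, 0.39, -0.24 and 0.29 in WT replicates 1 to 4. The trend thus ran largely along genotype, with WT replicate 3 the exception. Over all genes, 2165 had an unadjusted p under 0.05 in the main fit (15.4%) and 1588 with GC and length trends removed. The part of the GC trend in the genotype differences was not tested. Aqp2, with 63.2% GC, lay above 98.7% of tested genes and Aqp4, with 41.4%, above 9.36%. With GC and length trends removed, the log2 fold change was 0.20 for Aqp2 (limma adjusted p = 0.874) and 0.43 for Aqp4 (limma adjusted p = 0.558). No paired analysis was possible because nothing in the labels pairs a KO animal with a WT animal, and the replicate numbers follow accession order only. Avpr2 and Aqp8 rest on few reads.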

Other observations

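Oxt, the oxytocin gene, which is below the filter and was chosen after its values were seen, had 1, 3, 3 and 3 reads in KO and 0, 1, 0 and 0 in WT. The groups did not overlap on the scaled FPKM scale (exact two-sided permutation p = 0.0286, the smallest the design allows, unadjusted). On reads they met, since KO replicate 1 and WT replicate 2 had 1 read each, so the separation rests on the division by library depth. The groups did not overlap for 8.62% of all tested genes. The ratio of Oxt reads was 9.67 with an exact 95% interval of 1.38 to 420 that covers counting error only. As the gene was picked by its values, the p and the interval describe these reads only. The receptor gene Oxtr had 28 reads in KO and 23 in WT. Aqp9, a glycerol channel of liver, had 7 reads in KO and 10 in WT.

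Psca, named after its values were seen, had the largest log2 difference of KO replicate 3 from the other KO libraries among genes with a mean of at least 5 scaled FPKM. It measured 9.34, 7.06, 25.8 and 1.90 scaled FPKM in KO and 2.56, 1.18, 14.7 and 0.288 in WT. WT replicate 3, the WT library with the highest Psca and Akr1b3, had Aqp2 at 177, within the range of the other WT libraries, and the highest Aqp4 of the WT group at 12.7.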
